A study of Mus musculus with 6 samples.

Results

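The vascular endothelial growth factor (VEGF) family was followed in primary mouse keratinocytes through 8 genes: the receptor kinase genes Kdr and Flt1, the ligand genes Vegfa, Vegfb, Vegfc and Pgf, and the co-receptor genes Nrp1 and Nrp2. These 8, of 25132 named genes in the table, were chosen by gene name at a time when the fold changes of Kdr and Flt1 were already known, so their values in this comparison are a description and carry no test of the choice. Each gene was read from its RefSeq transcript row with the highest base mean, the authors' mean normalized count over all libraries. The 8 genes hold 28 transcript rows, of which 21 were listed at 0, 7 had a fold change and 5 had an adjusted p-value. Over all transcripts 58.4% were listed at 0. Kdr and Flt1 both lie on mouse chromosome 5, Vegfc and Nrp1 on chromosome 8, Nrp2 on 1, Pgf on 12, Vegfa on 17 and Vegfb on 19 (GRCm38.p6).

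VEGF ligands are secreted dimers that drive the growth of blood and lymphatic vessels. Kdr encodes the main signalling receptor for VEGF-A on endothelial cells, and Flt1 encodes a receptor that binds VEGF-A, VEGF-B and placental growth factor tightly and signals weakly, so that it also acts as a trap. Neuropilins 1 and 2 bind VEGF and class 3 semaphorins beside the receptor kinases or plexins. In skin, keratinocytes are the usual source of VEGF-A for the vessels of the dermis, while both receptor kinases are best known from endothelium.

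The cells were wild-type epidermal keratinocytes of C57BL/6 pups at postnatal days 1 to 3, kept in medium with 0.05 mM calcium. Cells received either pro-miR-148a, a precursor that raises the microRNA miR-148a, or miR-Control, a control small RNA. A dose of 200 nM is listed for both groups. Apart from this treatment the labels give both groups the same strain, genotype, age and medium. RNA was taken 48 h after transfection, with 3 libraries listed for pro-miR-148a and 3 for miR-Control. The titles number the miR-Control samples 1, 2 and 3, but 2 of the 3 pro-miR-148a titles carry the number 1 before their replicate numbers, so they may share a sample. Nothing in the labels ties a library to a separate animal or culture, and the spread behind the p-values may be technical. The deposited table gives 1 comparison and no value per library. An error written as SE is the standard error that the authors list beside a log2 fold change. The basal keratin gene Krt5 had the highest base mean of the whole table (630448 per the authors' deposited table), while its partner Krt14 had 40.3 in the highest of 3 rows and Trp63, a basal regulator, was at 0 in all 8. Transcripts of other skin cells were counted too, with base means of 11119 for the collagen gene Col1a1 and 8101 for the melanocyte gene Pmel (authors' deposited table).

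Which group stands on top of the deposited fold changes is not written in the table, and every direction below depends on how that is read. MicroRNAs lower the transcripts they pair with. The 1565 tested genes whose longest 3' untranslated region (UTR) holds the miR-148a-3p seed match had a median deposited log2 fold change of 0.07, against -0.01 for the 8326 without it. The signs were therefore turned, in keeping with the order of the groups in the table's title (control before miR-148a), and a positive log2 fold change here means higher with pro-miR-148a. This reading was made on these same data, so it is no separate evidence on targets, and if it is wrong every direction turns at once.

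The microRNA and its matches in the receptor gene Flt1 are shown because Flt1 was higher with pro-miR-148a although its transcripts carry seed matches. In the RefSeq sequence of miR-148a-3p the capitals mark the seed, bases 2 to 8. In the 3 windows of Flt1, read from GENCODE M21 transcripts on the sense strand, the capitals mark the 7 bases complementary to that seed.
miR-148a-3p: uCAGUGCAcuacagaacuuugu
Flt1 NM_010228, first site: tcatggctgcaTGCACTGacctgctctgtc
Flt1 NM_010228, second site: acatacctaggTGCACTGggcctgatcacc
Flt1 NM_001363135, only site: tagaaatgcagTGCACTGggtctgagtttt
The first site starts at base 346 of a 3' UTR of 2616 bases and is followed by A, which makes it an 8mer, and the second starts at base 2140. In the shorter-coding transcript NM_001363135 the site starts at base 2871 of 3971. Positions count from 1 at the base after the stop codon. The other 7 genes, Kdr, Vegfa, Vegfb, Vegfc, Pgf, Nrp1 and Nrp2, had no such match in the 3' UTR of any coding transcript of GENCODE M21. Some annotated coding transcripts of Vegfa and Vegfc have no 3' UTR. Coding sequence and other forms of seed match were not searched. Over all tested genes, the longest 3' UTR held the 7-base match in 15.8% and the 8mer in 4.38%. The longest 3' UTR of Flt1 is that of NM_001363135, so in that count Flt1 has the 7-base match and not the 8mer.

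Both receptor kinase genes were higher with pro-miR-148a, and neither tested ligand gene was called. Kdr had a base mean of 438 and a log2 fold change, pro-miR-148a over miR-Control, of 2.73 ± 0.18 SE per the authors' deposited table (adjusted p = 1.08e-48), a 95% interval of 5.19-fold to 8.52-fold higher. Flt1, by its row NM_010228, had a base mean of 50.5 and a log2 fold change of 1.88 ± 0.31 SE per the authors' deposited table (adjusted p = 1.07e-08), an interval of 2.43-fold to 5.60-fold higher. These are large changes for genes at their level of counting. Of 1795 other tested genes with a base mean within 2-fold of that of Kdr, 4 had a log2 fold change as high, and of 1621 such genes around Flt1, 10 did. From the highest fold change down, Kdr stood 7th and Flt1 47th of 11050 tested genes.

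Of the 8 genes, 4 had a tested row, and of these 2 were called higher, none was called lower and 2 were not called at an adjusted p of 0.05. Over all 11050 tested genes, 16.7% were called higher, 16.8% lower and 33.5% in either direction. Since the genes were chosen with this comparison in view, nothing is read from their count against those shares. The order of the 4 deposited fold changes was Kdr, Flt1, Pgf and Vegfc. Deposited fold changes look shrunken at low counts. From its whole counts, given below, Pgf had a log2 ratio of -1.61, under the deposited value of Vegfc and outside its own deposited interval. The order of Pgf and Vegfc is therefore not settled, and the intervals hold for the deposited values only. The intervals of Kdr and Flt1 overlapped between 2.38 and 2.49 on the log2 scale, those of Pgf and Vegfc overlapped over most of their length, and neither ligand interval reached those of the receptors.

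**Figure D1:**
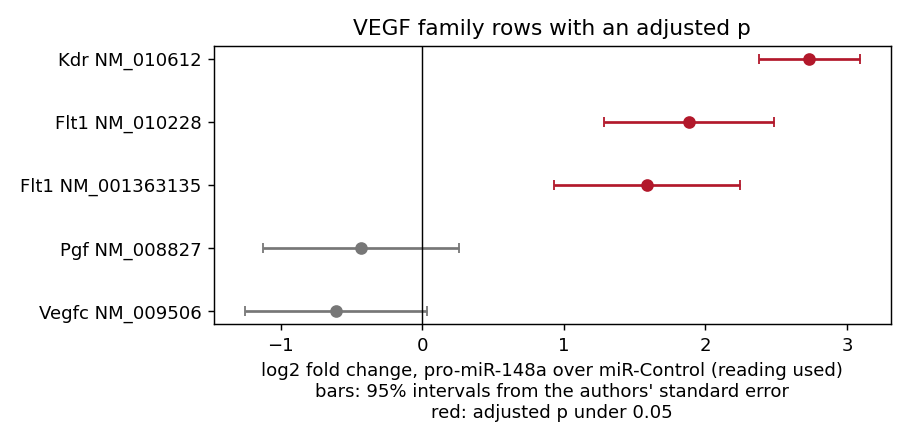
Log2 fold change, pro-miR-148a over miR-Control, of the 5 VEGF family rows with an adjusted p-value; points are the deposited values with turned sign, bars are 95% intervals, and red marks an adjusted p under 0.05. Kdr and both Flt1 rows lie right of 0, and the bars of Pgf and Vegfc cross 0. The deposited values look shrunken at low counts, and the bar of Pgf does not reach the log2 ratio of -1.61 from its whole counts.

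**Figure D2:**
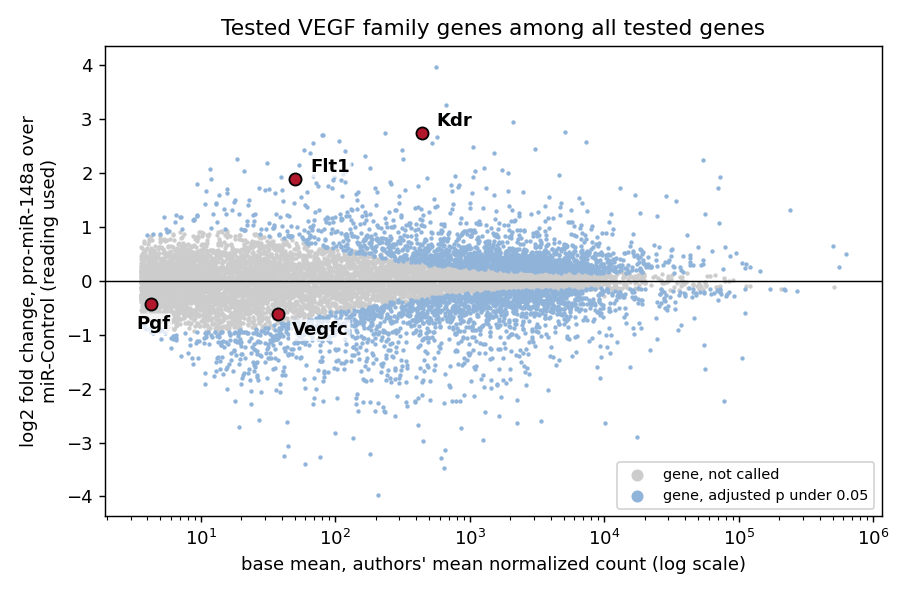
Log2 fold change, pro-miR-148a over miR-Control, against base mean (log scale) for all 11050 tested genes, with the 4 tested VEGF family genes as large red points. Kdr and Flt1 lie near the upper edge for their base mean, and Pgf and Vegfc lie among the genes that were not called.

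The rows of the receptors separate splice forms. The Flt1 row NM_010228 codes for 1333 residues, the full-length receptor, and NM_001363135 for 688 residues with a 3' end of its own, as does the known secreted form of the receptor. In GENCODE M21 the rows have 4669 and 4066 exonic bases not shared with each other. The short form had a base mean of 40.7 and a log2 fold change of 1.59 ± 0.34 SE per the authors' deposited table (adjusted p = 1.71e-05), an interval of 1.90-fold to 4.73-fold higher. The interval overlaps that of the full-length row over most of its length, and a difference between the forms was not tested. Per kilobase of unshared exon the levels were close, at 10.8 for the full-length row and 10.01 for the short one (base mean per kilobase). The second Kdr row, NM_001363216, had a base mean of 0.332 per the authors' deposited table and no adjusted p, so nearly everything counted for Kdr was in NM_010612.

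If a base mean is the average of 2 groups of equal size, the fold changes imply group means of 762 normalized counts with pro-miR-148a and 115 with miR-Control for Kdr. For the full-length Flt1 row they imply 79.5 with pro-miR-148a and 21.6 with miR-Control. Such a calculation gives a positive mean for both groups whatever the counts were. These values alone thus do not show that either gene was counted in the control cultures. These means are computed from shrunken fold changes and understate the gap where counts are few, as the exact counts of Pgf below show.

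The promoters of Kdr and Flt1 are shown because both genes moved in the same direction. They are RefSeq sequences of build GRCm38.p6 from 250 bases before to 50 bases after the annotated start. Capitals mark GC boxes (GGGCGG or its complement CCGCCC) and a TATA element (TATAAA or TTTATA).
Kdr, chr5:75978406-75978705, minus strand: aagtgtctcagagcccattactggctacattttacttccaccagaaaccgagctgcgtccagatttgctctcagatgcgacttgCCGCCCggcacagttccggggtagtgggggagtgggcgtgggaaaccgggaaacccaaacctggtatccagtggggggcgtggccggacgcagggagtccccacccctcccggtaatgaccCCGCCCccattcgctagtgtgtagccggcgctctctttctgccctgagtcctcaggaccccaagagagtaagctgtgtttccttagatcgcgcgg
Flt1, chr5:147725962-147726261, minus strand: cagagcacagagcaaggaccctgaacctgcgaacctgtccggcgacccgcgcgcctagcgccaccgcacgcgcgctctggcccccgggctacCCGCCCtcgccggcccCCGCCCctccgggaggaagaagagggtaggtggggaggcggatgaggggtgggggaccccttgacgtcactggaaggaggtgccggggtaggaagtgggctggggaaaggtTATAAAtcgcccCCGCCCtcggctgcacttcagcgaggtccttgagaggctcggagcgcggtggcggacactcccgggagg
Kdr holds 2 GC boxes and no TATA element, and Flt1 holds 3 GC boxes and 1 TATA element. GC boxes are not particular to this pair: each of the other 6 genes has at least 1 in a promoter, among them Vegfc with 2 and Nrp2 with 5. Of 32851 mouse promoters of this length, 35.7% hold a GC box and 13.6% a TATA element on either strand. For the core of the hypoxia response element only the string ACGTG or CACGT was searched, held by 19.6% of promoters. For an ETS site only CCGGAAG or CTTCCGG was searched, held by 8.86%. These strings were in neither window. Other forms of both sites were not searched, so a lack of such sites is not shown. The GC content was 60.7% for Kdr and 70.7% for Flt1, against a median of 52.7%. These matches describe the letters of the window and say nothing of which factors act there.

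Among the ligands, Vegfc and Pgf had tested rows. Vegfc, a ligand of lymphatic vessels that binds the receptor encoded by Flt4 and also Kdr, has 1 row (NM_009506). Its base mean was 37.2 and its log2 fold change -0.61 ± 0.33 SE per the authors' deposited table (adjusted p = 0.154). The interval ran from 0.419-fold to 1.02-fold, so a fall of more than 2-fold and no change both lie within it. Of 1735 other genes at a like base mean, 17.0% were called in either direction and 461 had a fold change of at least this size.

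Pgf encodes placental growth factor, a ligand of Flt1. It has 2 rows that match the same GENCODE transcript, and NM_001271705 was listed at 0. The counted row, NM_008827, had a base mean of 4.23 and a log2 fold change of -0.43 ± 0.35 SE per the authors' deposited table (adjusted p = 0.404). At this level the whole counts of each library could be worked out from the base mean. A single count adds one of 6 fixed amounts to a base mean, depending on the library that holds it, and these amounts give the size factors of the libraries. Those were 0.870, 0.997 and 1.005 for the 3 libraries on the pro-miR-148a side and 0.969, 1.037 and 1.197 for the 3 on the miR-Control side. The side comes from the sign of the deposited fold change of transcripts with 1 count, and which labelled sample each library is was not determined.

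Exactly 1 set of whole numbers gave the base mean of Pgf to within 1.87e-08. Pgf had 4, 0 and 2 counts in the libraries on the pro-miR-148a side, against 6, 5 and 9 on the miR-Control side. All 3 libraries on the pro-miR-148a side were below all 3 on the miR-Control side, with 6 counts against 20. How many transcripts at this level separate in this way was not counted, so the separation is only a description. After division by size factors the means were 2.09 ± 1.998 with pro-miR-148a and 6.37 ± 2.52 with miR-Control (SD, n = 3 each), a log2 ratio of -1.61. The deposited log2 fold change of -0.43 is much closer to 0, and of 1405 other genes at a like base mean only 2.85% were called.

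The same counting of 200 transcripts with base means from 3 to 5 gave a single set of counts for each of the 200. In the 96 of them whose group means differed at least 2-fold, the deposited log2 fold change was a median of 0.227 of the log2 ratio of the means. The deposited fold changes of these low-count transcripts were thus pulled toward 0. How far the same holds for Flt1 and Vegfc, whose whole counts were not recovered, was not tested.

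**Figure D3:**
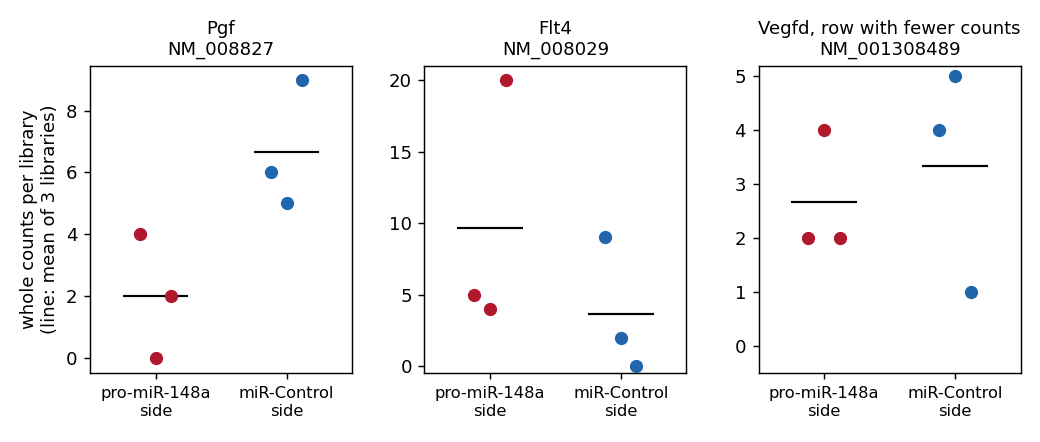
Whole counts per library (vertical axis, own scale in each panel) of Pgf and of the related genes Flt4 and Vegfd, with libraries of the pro-miR-148a side left of those of the miR-Control side; lines are means of 3 libraries. The libraries of the 2 sides do not overlap for Pgf, and they overlap for Flt4 and Vegfd. Pgf was not called, and how often other transcripts separate in this way was not counted.

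The remaining ligands and the co-receptors could not be compared. Vegfa, the main ligand of Kdr, has 10 rows, and all stand at 0 in the authors' deposited table. Vegfb, which binds Flt1, had 1 row at 0 and 1 (NM_011697) with a base mean of 0.166, which is a single count in 1 library of the pro-miR-148a side. All 3 rows of Nrp1 and all 6 of Nrp2 stand at 0 in the authors' deposited table. None of this measures absence. Transcripts of genes with several rows were often at 0 (73.9%), and the share followed how much sequence a transcript has to itself.

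Of 2030 transcripts with no exonic base of their own among the listed transcripts of their gene, 98.6% were listed at 0. The share was 77.3% with 1 to 100 such bases, 47.5% with more than 100 and up to 500, 41.7% with over 500, and 33.9% of transcripts of genes with 1 row. Of the 10 Vegfa rows 7 matched GENCODE M21, and 1 of them had bases of its own, 18 in number (NM_001025250). Vegfb NM_011697 had 123 and its other row had none. Of the 6 Nrp2 rows 5 had none, while NM_001077407 had 2333 and was also at 0. For Nrp1, 1 row of 3 matched, so its rows could not be compared. The sources used here do not say how reads shared between transcripts were counted.

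**Figure D4:**
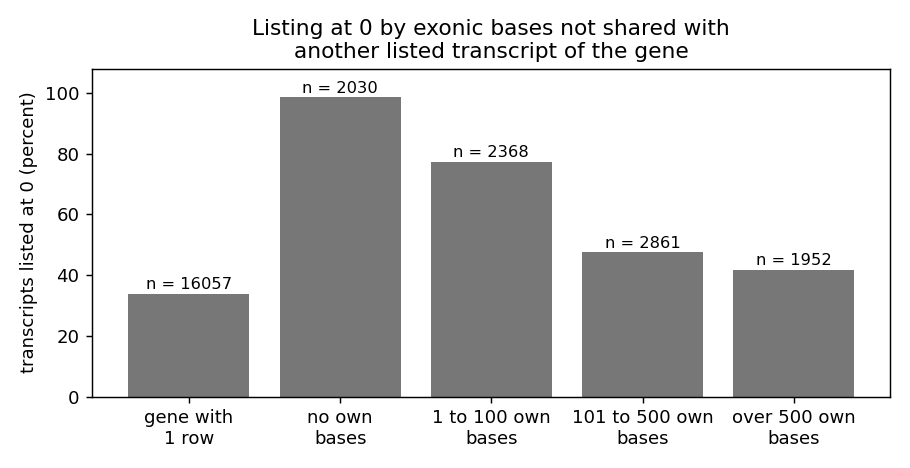
Percent of transcripts listed at 0 (bars) for genes with 1 row and, in genes whose rows all matched GENCODE M21, by the number of exonic bases that no other listed transcript of the gene shares. The bar is highest, at 98.6%, for transcripts with no base of their own, the class of 5 of the 6 Nrp2 rows.

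Levels were compared between genes as implied group means per kilobase of transcript. With pro-miR-148a the order was 129 for Kdr, 12.01 for Vegfc, 11.5 for the full-length Flt1 row and 2.28 for Pgf. With miR-Control it was 19.3 for Kdr, 18.3 for Vegfc, 3.13 for the full-length Flt1 row and 3.07 for Pgf. The short Flt1 row had 9.70 with pro-miR-148a and 3.23 with miR-Control. Levels of the Flt1 rows were not added, and each was divided by its whole transcript, shared bases included. The place of Flt1 as a gene against Vegfc and Pgf is therefore not given by these orders. By whole transcript length, Kdr stood far above Vegfc with pro-miR-148a and close to it with miR-Control. The second Kdr row has no GENCODE M21 match, so the bases that the Kdr rows share are unknown. Both Pgf rows match the same transcript, so the counted row has no bases of its own. The places of Kdr and Pgf against Vegfc thus hold for division by whole length only. From its decoded counts Pgf had 1.32 per kilobase with pro-miR-148a and 4.03 with miR-Control. The second of these was above the implied level of either Flt1 row taken alone. No error could be given for the implied means, and Vegfa, Nrp1 and Nrp2 have none to compare.

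The other family genes were not called. Flt4, the receptor gene of lymphatic endothelium, had 5, 4 and 20 counts in libraries of the pro-miR-148a side, against 9, 2 and 0 on the miR-Control side. A single library of the pro-miR-148a side held 20 of its 40 counts. The deposited log2 fold change of Flt4 was 0.53 ± 0.37 SE per the authors' deposited table (adjusted p = 0.299). Vegfd, a ligand gene of the lymphatic branch, had a log2 fold change of -0.07 ± 0.22 SE at a base mean of 114 per the authors' deposited table (adjusted p = 0.863). Its row with fewer counts had 2, 4 and 2 counts on the pro-miR-148a side and 4, 5 and 1 on the miR-Control side.

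Markers of endothelial cells, where Kdr and Flt1 are usually found, were set beside these receptors. Of 15 markers 10 were listed at 0, among them Pecam1, Tek, Emcn, Erg, Cldn5, Eng and Esam, of which Cldn5 alone has a single row. Among all named genes 37.0% had every row at 0. Cdh5, the cadherin of endothelial junctions, also with 1 row, had 2 counts in 1 library of the pro-miR-148a side and none elsewhere. Plvap had 2, 0 and 0 counts on the pro-miR-148a side, against 4, 2 and 12 on the miR-Control side. The transcription factor gene Sox18 had 2, 8 and 8 counts with pro-miR-148a and 8, 4 and 0 with miR-Control. Tie1 had a log2 fold change of 0.56 ± 0.38 SE at a base mean of 20.8 per the authors' deposited table (adjusted p = 0.295), and it was not called. Vwf, the endothelial clotting factor gene, fell, with a log2 fold change of -0.81 ± 0.26 SE (adjusted p = 0.0069, base mean 104, the authors' deposited table). The implied group means of the 15 markers added up to 109 with pro-miR-148a and 158 with miR-Control, mostly from Vwf, while those of Kdr were 762 with pro-miR-148a and 115 with miR-Control. Of the 10 markers at 0, 9 have several rows. Among single transcripts of genes with several rows 73.9% were at 0. How many such genes have every row at 0 was not counted, so that share is no measure for these 9. The sums therefore do not measure how many endothelial cells the cultures held.

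Markers of other cells did not all move one way. Over all tested genes 16.7% were called higher and 16.8% lower. Of 4 lymphatic markers 2 were tested and Lyve1 fell (-1.72 ± 0.39 SE, base mean 10.7, the authors' deposited table), while Prox1 had 1 count in all. Of 4 tested myeloid markers, cells that can carry Flt1, Csf1r rose (0.76 ± 0.20 SE) and Lyz2 (-2.63 ± 0.34 SE) and C1qa (-2.72 ± 0.39 SE) fell, per the authors' deposited table, and Cd68 was not called. Of 8 tested fibroblast and mural markers 5 fell, among them Thy1 (-0.85 ± 0.12 SE) and Col3a1 (-0.53 ± 0.08 SE) per the authors' deposited table, and none rose. Of 4 tested melanocyte markers Mlana fell (-0.53 ± 0.14 SE per the authors' deposited table) and 3 were not called. Of 6 tested keratinocyte markers Krt5 rose (0.49 ± 0.06 SE) and Krt1, Krt10 and Cdh1 fell, per the authors' deposited table. With a minimum of 1.5-fold, 1 fibroblast and mural call, 2 keratinocyte calls and no melanocyte call were left. The same minimum left 644 of 1844 higher and 996 of 1858 lower calls over all 11050 tested genes. Whether the make-up of the cultures bears on Kdr or Flt1 was not tested, and in bulk RNA fewer cells of a type and less RNA per cell cannot be told apart.

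Genes that act after the receptors went both ways. Of 58 genes of VEGF receptor signalling 40 were tested: 11 rose, 8 fell and 21 were not called. That is 19 of 40 called, against 33.5% of all tested genes. The called share depended on base mean, with 2.85% of genes near the base mean of Pgf and 44.5% near that of Kdr. Shares at like base means were not computed for this list or for those below. With a minimum of 1.5-fold, 9 of the list were called, while over all 11050 tested genes 644 of 1844 higher and 996 of 1858 lower calls were left. The median log2 fold change was -0.04, against -0.01 over all tested genes. The chaperone gene Hsp90aa1 (1.23 ± 0.07 SE), the regulatory subunit gene of phosphoinositide 3-kinase Pik3r1 (1.21 ± 0.16 SE) and the protein kinase C gene Prkca (1.15 ± 0.08 SE) rose most, per the authors' deposited table. Prkcb, another protein kinase C gene (-1.92 ± 0.38 SE), and the phosphatase gene Dusp6, which acts on ERK (-1.27 ± 0.10 SE), fell most, per the authors' deposited table. Plcg1, the phospholipase C that Kdr activates, rose by a log2 fold change of 0.19 ± 0.07 SE per the authors' deposited table (adjusted p = 0.0287). The ERK gene Mapk3, the most abundant gene of the list that was not called, had -0.02 ± 0.06 SE per the authors' deposited table.

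Regulators of Vegfa were mostly not called. Of 22 genes of the hypoxia-inducible factors, their hydroxylases and other Vegfa regulators 16 were tested. None rose, 1 fell and 15 were not called, with a median of 0.05. Of all tested genes, at any base mean, 33.5% were called. The count of calls in the list was 3 after recentring of the fold changes and 2 with a base mean of at least 100. The gene that fell was Zfp36l1, whose protein binds AU-rich RNA elements such as those of Vegfa and promotes decay (-0.68 ± 0.08 SE, adjusted p = 2.74e-17, the authors' deposited table). Epas1, which encodes HIF-2 alpha, had a log2 fold change of -0.14 ± 0.09 SE per the authors' deposited table (adjusted p = 0.276). Hnrnpl, the most abundant gene of the list that was not called, had 0.12 ± 0.06 SE per the authors' deposited table. Hif1a had 2 of 3 rows at 0 and a base mean of 0.590 in the third, so it has no usable value.

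Semaphorins and plexins share the neuropilins with VEGF. Of 12 genes 9 were tested, 4 rose, 1 fell and 4 were not called, with a median of 0.17, where 16.7% of all tested genes were called higher and 16.8% lower. The rises were small, and 1 of the 5 calls was left with a minimum of 1.5-fold and 3 at an adjusted p of 0.01. Over all 11050 tested genes the minimum of 1.5-fold left 644 of 1844 higher and 996 of 1858 lower calls. The threshold of 0.01 left 1444 higher and 1438 lower. The plexin gene Plxna1 (0.40 ± 0.07 SE) and the ligand genes Sema3c (0.34 ± 0.08 SE) and Sema3e (0.30 ± 0.11 SE) rose most, per the authors' deposited table, and Plxna2 rose by 0.20 ± 0.07 SE. The calls of Sema3e (adjusted p = 0.0223) and Plxna2 (adjusted p = 0.0201) were near the threshold in that deposited table. Plxna4 fell (-1.11 ± 0.35 SE, base mean 26.7, the authors' deposited table). Sema3d, the most abundant gene of the list that was not called, had -0.05 ± 0.14 SE per the authors' deposited table.

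Proteases and heparan sulfate proteoglycans hold VEGF in the matrix or release it. Of 28 such genes 21 were tested, 4 rose, 9 fell and 8 were not called, and the median was 0.08, where 16.7% of all tested genes were called higher and 16.8% lower. With a minimum of 1.5-fold the 13 calls became 4, while over all 11050 tested genes 644 of 1844 higher and 996 of 1858 lower calls were left. The stromelysin gene Mmp3 (-2.67 ± 0.31 SE) and the gelatinase genes Mmp2 (-1.20 ± 0.15 SE) and Mmp9 (-1.11 ± 0.35 SE) fell most, per the authors' deposited table. Mmp9 had a base mean of only 35.1 per the authors' deposited table. Plau, the urokinase gene (0.71 ± 0.10 SE), Ccn2, whose protein binds VEGF-A (0.55 ± 0.23 SE, adjusted p = 0.0458), and the membrane protease gene Mmp14 (0.43 ± 0.07 SE) rose most, per the authors' deposited table. The syndecan gene Sdc4, not called, had 0.16 ± 0.07 SE per the authors' deposited table.

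Other angiogenic factors and inhibitors were called at a share near that of all tested genes. Of 28 genes 21 were tested, 1 rose, 7 fell and 13 were not called, and the median was -0.25. Over all tested genes 33.5% were called, 16.7% higher and 16.8% lower, and the direction within the list was not tested. Fgf1 (-2.26 ± 0.17 SE), an endothelial mitogen, Pdgfb (-1.05 ± 0.14 SE), which recruits pericytes, and Spry4 (-0.98 ± 0.24 SE), an inhibitor of receptor kinase signalling, fell most, per the authors' deposited table. Thbs2 (-0.58 ± 0.09 SE), an inhibitor of vessel growth, and Ccn1 (-0.52 ± 0.10 SE), a matrix protein that promotes it, also fell, per the authors' deposited table. Col18a1, the source of endostatin, was the gene that rose (0.67 ± 0.18 SE, adjusted p = 0.000682, the authors' deposited table). Timp3, an inhibitor of metalloproteases that also blocks VEGF at Kdr and the most abundant gene of the list that was not called, had 0.10 ± 0.06 SE per the authors' deposited table.

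**Figure D5:**
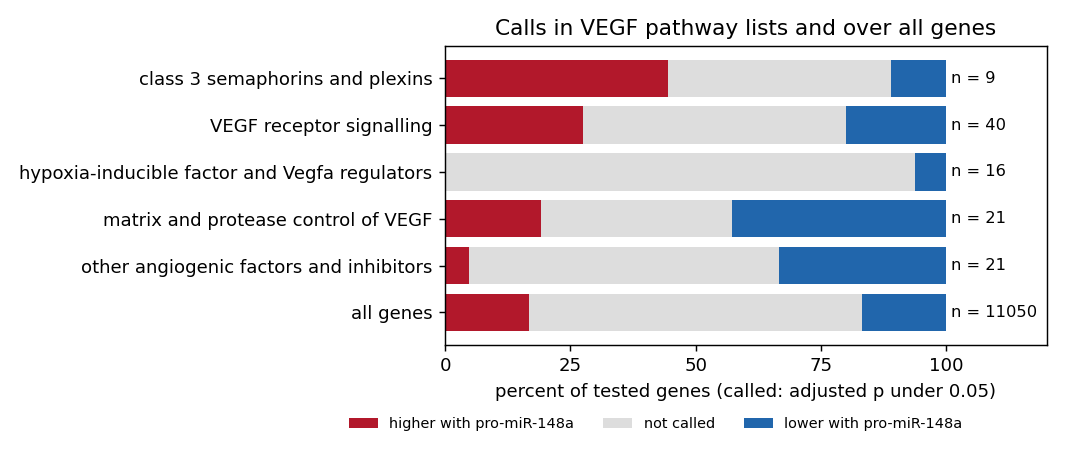
Percent of tested genes called higher (red), not called (grey) and called lower (blue) with pro-miR-148a in 5 lists of the VEGF pathway and over all 11050 tested genes; n is the number of tested genes. In the lists of matrix control and of other angiogenic factors the blue share, 9 of 21 and 7 of 21, exceeds the red, 4 of 21 and 1 of 21.

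Categories named for vessels, endothelial cells, semaphorins or hypoxia made up 15 of 951 in the authors' deposited table of gene ontology (GO), and none was over-represented at an adjusted p of 0.05. Only 5 of all 951 categories were over-represented at that threshold, so little can be read from the lack of any among these 15. Angiogenesis had 14 changed genes of 67, with an adjusted p of 1 per the authors' deposited table. The semaphorin receptor complex had 2 changed genes of 4 and the response to hypoxia 2 of 16 per the authors' deposited table. How the authors chose the changed genes is not stated there.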

How the data were processed

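RNA sequencing libraries were grouped by their titles into pro-miR-148a (3) and miR-Control (3). Per the submitters' processing notes, DESeq2 and build mm9 were used, with no version or role; aligner, counter and annotation: not given in the sources used here. For 42885 RefSeq transcripts the authors deposited a base mean (a signal: normalized count averaged over libraries), a log2 fold change with its standard error, a Wald score, and a p-value raw and adjusted, per the file headers. Their deposited GO table holds counts of genes per category with p-values. Neither has a column per library, so no model was fitted and calls rest on the deposited adjusted p at 0.05. The standard error never exceeded 0.393, and log2 fold changes at base means under 1 never exceeded 0.248 in size, so the fold changes look shrunken. Adjusted p-values were given at base means of 3.56 or more.

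Symbols were matched by RefSeq accession (42798 transcripts, GRCm38.p6 annotation and GENCODE M21), and 11050 genes had an adjusted p in their most abundant row. Whole counts were solved from base means under 8 by integer search. The decoding and a recentred Wald test with Benjamini-Hochberg adjustment were tested on simulated data. Library totals are unknown, and base means add up to 2.65e+07. Members, lists and the rule for naming genes (all members; from each list every called gene if 4 or fewer, otherwise the 3 highest and 3 lowest, and the most abundant one not called; Mmp9 and Hif1a) were chosen with earlier results of these data known. Plcg1, Epas1, Flt4, Vegfd, Tie1, Thbs2, Ccn1 and the markers with decoded counts were chosen after their values were seen. A further gene named by the rule is not reported here. Alternatives were a threshold of 0.01, a minimum of 1.5-fold, the second row of each gene, recentring, no filter on base mean, a base mean of at least 100 and the opposite sign. Software was Python 3.11.15, numpy 2.4.6, pandas 2.3.3, scipy 1.17.1 and matplotlib 3.10.9.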

Additional observations from a re-analysis of the deposited data

How the results depend on the processing

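Kdr and Flt1 were called higher under an adjusted p of 0.01, a minimum of 1.5-fold, recentring and no filter on base mean. With the second row of each gene 1 of the 8 genes was called higher instead of 2, because the second Kdr row has 2 counts in all (log2 fold change 0.0745, no adjusted p). With a base mean of at least 100, 1 was called, since Flt1 falls below that minimum. Under the opposite reading of the sign 0 were higher and 2 lower, with log2 fold changes of -2.73 for Kdr, -1.88 for Flt1, 0.61 for Vegfc and 0.43 for Pgf, and every direction in the text turns.

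Counts of called genes in either direction moved by more than 1.5 times as follows. With a minimum of 1.5-fold, all genes went to 644 higher and 996 lower (1844 and 1858 without it), receptor signalling to 9 (19), semaphorins and plexins to 1 (5), matrix control to 4 (13), fibroblast and mural markers to 1 (5), keratinocyte markers to 2 (4) and melanocyte markers to 0 (1). At an adjusted p of 0.01 semaphorins and plexins had 3. Vegfa regulators had 3 calls after recentring and 2 at a base mean of at least 100 (1 otherwise). At that base mean myeloid markers had 1 (3) and lymphatic markers 0 (1). Recentring shifted log2 fold changes by 0.01, the size of the median over tested transcripts.

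No paired analysis was possible because the deposited tables hold no value per library, so leaving out each replicate was not run either. Precision is limited by counting: transcripts with base means under 100, the range of Flt1, Vegfc and Pgf, had a median SE of 0.37, against 0.08 from 1000 upward.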
